A study of Mus musculus with 20 samples.

Results

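The Cyp3a cytochromes were followed in livers of male mice of the inbred strain C57BL/6J. For 4 weeks 10 mice ate a high-fat diet with 45% of its energy as fat, and 10 ate a low-fat diet with 10% as fat. The mice were 8 weeks old and fasted for 16 h before the livers were taken, and all had eaten the low-fat diet for 1 week of acclimation from 3 weeks of age. Each mouse gave 1 array, read with Affymetrix probe sets that lie towards the 3′ end of transcripts. The study is titled for a maple syrup extract given on the high-fat diet, and groups given it are not analysed here. The members were Cyp3a11, Cyp3a13, Cyp3a16, Cyp3a25 and Cyp3a44, found as all probe sets annotated with exactly 1 gene symbol from the family. That gave 5 of 18193 genes with a named probe set, each with 1 of the 45037 probe sets that were not controls. The family was selected on its scores in the contrast of the diets, where most members differed, so the diet differences of the members are given as a description, without a test.

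Cyp3a enzymes are haem proteins of the endoplasmic reticulum that oxidise drugs, steroids and bile acids, taking electrons from cytochrome P450 reductase. In mouse liver their genes are known targets of the nuclear receptor PXR (Nr1i2), which senses foreign chemicals and bile acids, and of its relative CAR (Nr1i3). Cyp3a11 is the main adult form and the usual mouse counterpart of human CYP3A4, Cyp3a25 and Cyp3a13 are also adult forms (Cyp3a13 is found in the intestine as well), Cyp3a44 is known to be higher in females, and Cyp3a16 is known from fetal and newborn liver.

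All 5 genes lie on chromosome 5 in assembly GRCm38.p6. Cyp3a16, Cyp3a44, Cyp3a11 and Cyp3a25 stand in this order in 1 cluster, and Cyp3a13 lies apart from it, with 122 other protein-coding genes between. The 250 bases before the annotated start (RefSeq, GRCm38.p6, all on the minus strand) are shown for the 4 members of the cluster, because they show how like the upstream regions of members with unlike scores are. They span chr5:145879855-145880104 for Cyp3a11, chr5:145469724-145469973 for Cyp3a16, chr5:145805875-145806124 for Cyp3a44 and chr5:146009619-146009868 for Cyp3a25. For Cyp3a25 2 starts were listed, and the first in the list was used. Capitals mark AGGTCA and AGTTCA, half-sites of nuclear receptors, CAAAGTCCA, a form of the site of the liver receptor HNF4A, each searched on both strands, and TATAA, searched as written; no base fell in more than 1 of these motifs.
Cyp3a11: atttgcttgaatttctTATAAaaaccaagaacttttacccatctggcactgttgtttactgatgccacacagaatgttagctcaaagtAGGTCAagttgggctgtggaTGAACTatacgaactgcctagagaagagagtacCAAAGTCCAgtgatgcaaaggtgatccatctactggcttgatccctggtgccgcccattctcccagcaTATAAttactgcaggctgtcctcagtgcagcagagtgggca
Cyp3a16: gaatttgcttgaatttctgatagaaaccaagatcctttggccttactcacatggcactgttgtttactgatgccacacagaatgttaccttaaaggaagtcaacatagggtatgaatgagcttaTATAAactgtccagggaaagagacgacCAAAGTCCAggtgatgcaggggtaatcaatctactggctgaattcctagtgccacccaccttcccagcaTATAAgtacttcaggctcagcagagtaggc
Cyp3a44: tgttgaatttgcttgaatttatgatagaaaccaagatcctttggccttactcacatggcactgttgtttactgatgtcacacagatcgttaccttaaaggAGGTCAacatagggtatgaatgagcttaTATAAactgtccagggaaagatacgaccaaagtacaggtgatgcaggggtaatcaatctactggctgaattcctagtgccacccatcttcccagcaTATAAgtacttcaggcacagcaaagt
Cyp3a25: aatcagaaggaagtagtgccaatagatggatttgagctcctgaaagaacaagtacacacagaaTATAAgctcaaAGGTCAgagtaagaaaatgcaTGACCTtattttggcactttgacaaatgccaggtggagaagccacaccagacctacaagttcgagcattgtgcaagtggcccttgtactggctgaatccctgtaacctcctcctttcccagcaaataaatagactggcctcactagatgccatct

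The upstream regions of Cyp3a16 and Cyp3a44 were 92.9% identical over their alignment. Cyp3a11 was 76.6% identical to Cyp3a16 and 72.5% to Cyp3a44. Cyp3a25 was 55.9% identical to Cyp3a11 and 56.8% to Cyp3a16, and Cyp3a13 was 57.3% identical to Cyp3a11 and 59.1% to Cyp3a16. No identity of unrelated windows is given here for comparison. AGGTCA was found in Cyp3a11, Cyp3a25 and Cyp3a44, and in 14.0% of the 32851 promoter windows of that length. AGTTCA was found in Cyp3a11 (11.8% of windows), CAAAGTCCA in Cyp3a11 and Cyp3a16 (0.384% of windows) and TATAA in the 4 genes shown (16.0% of windows). Cyp3a13 held none of these letters in its window. These matches describe sequence and are not measured binding sites. The motifs were chosen after these sequences had been read, so nothing is read from the shares of windows.

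On the high-fat diet the scores of Cyp3a11, Cyp3a25, Cyp3a44 and Cyp3a13 were lower than on the low-fat diet, while for Cyp3a16 the diets overlapped almost wholly. The deposited score of a probe set runs like a log2 intensity in level, but its differences between arrays are compressed by an amount that differs between probe sets. A difference is therefore given in units of the SD between mice within diets, written as a standardised difference (high-fat mean minus low-fat mean), and its size says how far the mice of both diets stand apart, not how many fold a transcript changed. In the fit across all probe sets with limma, 4 of the 5 members were called at an adjusted p of 0.05, where 2.32% of all probe sets were. The 4 were lower, as were 1.20% of all probe sets, and 0 were higher, as were 1.11%. Since this contrast chose the members, nothing is read from that count. The intervals given below for the members take no account of that choice, and are a description, not a test. In whole livers a smaller share of expressing cells and less RNA per cell cannot be told apart.

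Cyp3a11, the main adult enzyme, had scores of 13.15532, 13.15647 and 13.15706 in high-fat mice (lowest, median and highest), against 13.15794, 13.15845 and 13.15862 in low-fat mice. The diets did not overlap, the high-fat mice being the lower ones, with a gap of 2.14 SD between the nearest mice. The standardised difference was -5.07 (95% interval -6.92 to -3.19). The high-fat mice were also more spread, with an SD of 0.000527 against 0.000243 in low-fat mice. High-fat replicate 3 was the lowest and high-fat replicate 8 the highest of its diet.

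Cyp3a44, the form known to be higher in females, had scores of 5.905281, 5.905310 and 5.905331 in high-fat mice, against 5.905343, 5.905358 and 5.905422 in low-fat mice. Here too the diets stood apart, but the gap was only 0.479 SD, and the standardised difference was -2.66 (95% interval -3.88 to -1.42). Its spread ran the other way from that of Cyp3a11, with an SD of 1.81e-05 in high-fat mice and 2.83e-05 in low-fat mice. The score was below the array median on all 20 arrays, so it is not known whether the transcript itself was detected. Of all probe sets, 0.113% had every high-fat mouse below every low-fat mouse, as Cyp3a11 and Cyp3a44 did, and 0.0666% had the reverse order.

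**Figure D1:**
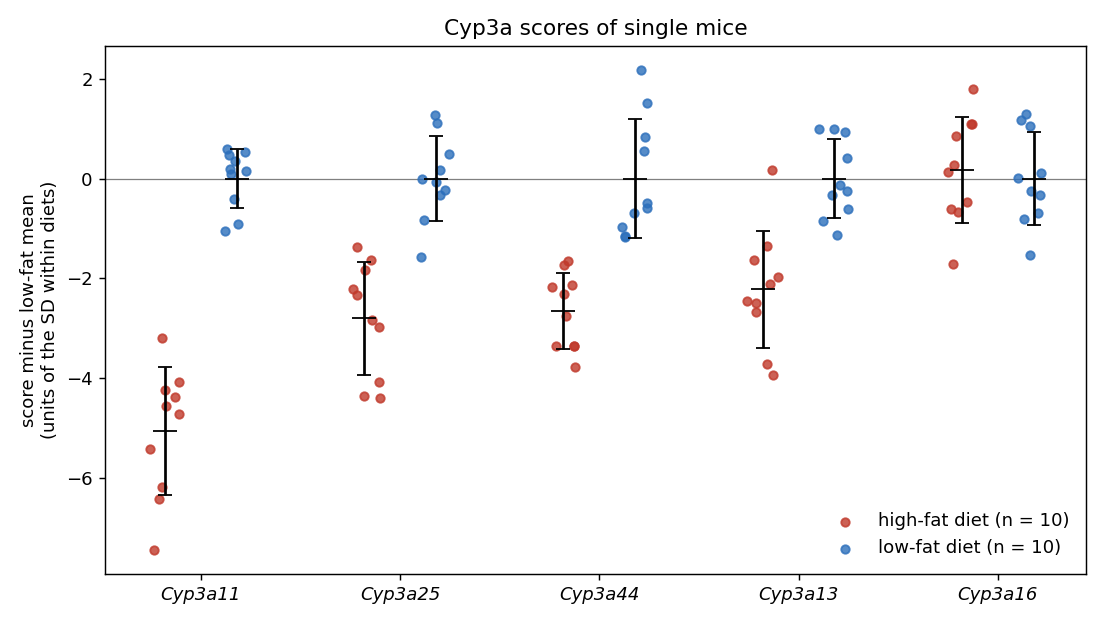
Scores of single mice for the 5 Cyp3a genes, as distance from the low-fat mean in units of the SD within diets (y axis). Points are mice, 10 per diet, high-fat (red) left of low-fat (blue), and bars are mean ± SD. Cyp3a11 and Cyp3a44 show no overlap of the diets, and Cyp3a16 shows both diets over the same range.

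Cyp3a25, another adult liver form, had scores of 12.73132, 12.73167 and 12.73190 in high-fat mice, against 12.73186, 12.73216 and 12.73241 in low-fat mice. Here 9 of the 10 high-fat mice lay below the lowest low-fat mouse, and with each high-fat mouse set against each low-fat mouse, the high-fat one was higher in 1 of 100 pairs. The standardised difference was -2.80 (95% interval -4.05 to -1.52).

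Cyp3a13, which lies apart from the cluster, had scores of 10.39689, 10.39840 and 10.40066 in high-fat mice, against 10.39946, 10.40033 and 10.40141 in low-fat mice. High-fat replicate 9 stood inside the low-fat range and above the low-fat median, while the other 9 lay below the lowest low-fat mouse. The standardised difference was -2.22 (95% interval -3.34 to -1.07). Without high-fat replicate 9 it was -3.01.

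Cyp3a16, the fetal and newborn form, had scores of 5.482021, 5.482035 and 5.482046 in high-fat mice, against 5.482022, 5.482032 and 5.482043 in low-fat mice. The ranges coincided almost wholly, with 8 of 10 high-fat mice inside the low-fat range, and the high-fat mouse was the higher one in 56 of 100 pairs. The standardised difference was 0.18 (95% interval -0.70 to 1.05). Its score too was below the array median on all 20 arrays. The members whose upstream regions are most alike, Cyp3a16 and Cyp3a44, had standardised differences of 0.18 and -2.66, though both probe sets gave low scores. The part of the upstream sequence in these values was not tested. A further probe set that carries 2 symbols of the family is outside the rule and is given no gene name. It had scores of 6.98878, 6.98908 and 6.98927 in high-fat mice, against 6.98966, 6.98988 and 6.99029 in low-fat mice, again without overlap. Members of the family have near-identical copies, and how far each probe set also reads other members is unknown here, although none of the 5 bears the array maker's mark for possible cross-hybridisation.

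**Figure D2:**
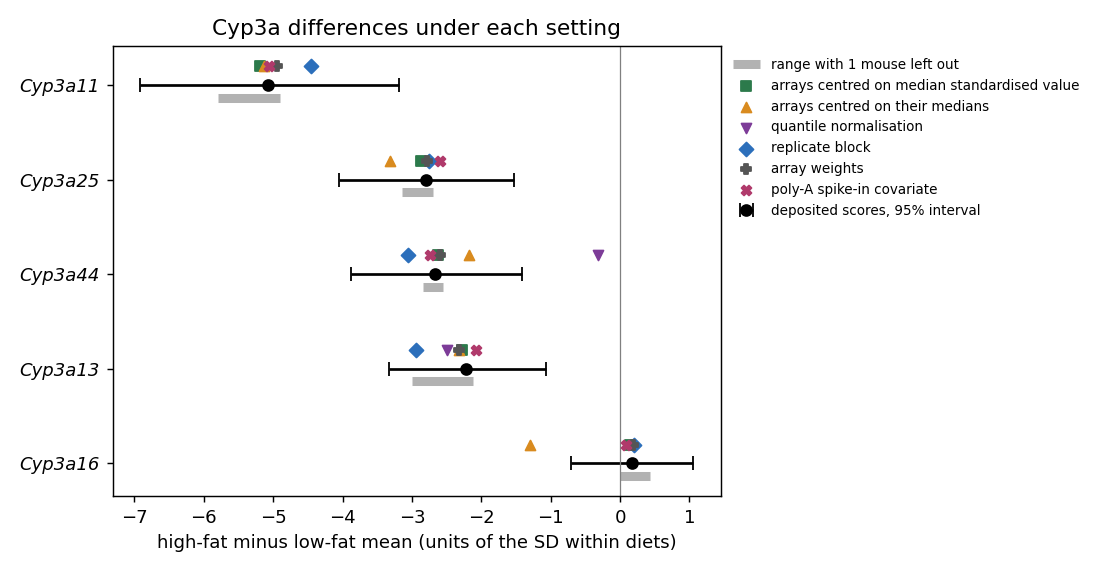
Standardised difference between diets (x axis, high-fat minus low-fat mean in units of the SD within diets) of the 5 Cyp3a genes. Black points and bars are the deposited scores with 95% intervals, which take no account of the choice of members by this contrast. Grey bars are the range with 1 mouse left out, and coloured symbols are other scalings and models. Cyp3a11, Cyp3a25 and Cyp3a13 stayed below -2 in every setting shown that gave a value, Cyp3a44 moved to -0.32 after quantile normalisation, and Cyp3a16 moved to -1.30 when arrays were centred on their medians.

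The 4 lower members were lower with arrays centred on their medians or on their median standardised value, and after quantile normalisation Cyp3a13 stood at -2.49 and Cyp3a44 at -0.32, while the other 3 members had 1 value on all arrays and gave none. Centring arrays on their medians shifted the median of all probe sets to -1.29, and Cyp3a16 to -1.30. Array medians were higher in high-fat mice by 7.33e-05. All 24 controls for poly-A RNA spiked in at labelling were lower in high-fat mice (median standardised difference -0.90; 0 of 64 controls were called by limma and 10 had an unadjusted p under 0.05). With their mean as a covariate Cyp3a11 stood at -5.06, Cyp3a44 at -2.74, Cyp3a25 at -2.60, Cyp3a13 at -2.07 and Cyp3a16 at 0.08. The 6 control probe sets that read Gapdh and the beta-actin gene along their length, as a check of RNA quality, stood between -0.92 and 0.73, with 0 called. The part of labelling and scaling in the Cyp3a values was not tested beyond these settings.

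Whether mice of 1 diet that had little of one Cyp3a transcript also had little of another was tested within each diet. Deviations within a diet do not enter the difference of the diet means, but their size sets the SD that this difference is divided by. None of the 20 relations (10 pairs of genes in each diet) passed a two-sided permutation test with 100000 resamples after Benjamini-Hochberg adjustment, with a smallest adjusted p of 0.454 for Pearson's r and 0.577 for Spearman's rho. At an unadjusted p under 0.05 there was 1, Cyp3a11 with Cyp3a13 in high-fat mice (r = 0.65, permutation p = 0.0428; rho = 0.56, permutation p = 0.097; 10 mice). Without the 2 mice farthest from the median of Cyp3a11 that r was 0.24. In low-fat mice r was -0.04 (permutation p = 0.919), and 0.45 without the 2 farthest mice. Leaving out the farthest mice also narrows the range of scores, so it cannot show whether a relation rests on them. With 10 mice a diet a moderate relation could be missed.

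The neighbours Cyp3a11 and Cyp3a25 had r = 0.52 in high-fat mice (permutation p = 0.125) and r = 0.62 in low-fat mice (permutation p = 0.0591). Low-fat replicate 7 was the lowest and low-fat replicate 9 the highest of its diet for both genes. Without the 2 mice farthest from the median of Cyp3a11, r was 0.01 in high-fat and -0.17 in low-fat mice. For Cyp3a11 with Cyp3a44, whose diets both separated fully, r was 0.27 in high-fat mice (permutation p = 0.447) and -0.11 in low-fat mice (permutation p = 0.769). Of the 20 values of r, 10 were above 0.

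**Figure D3:**
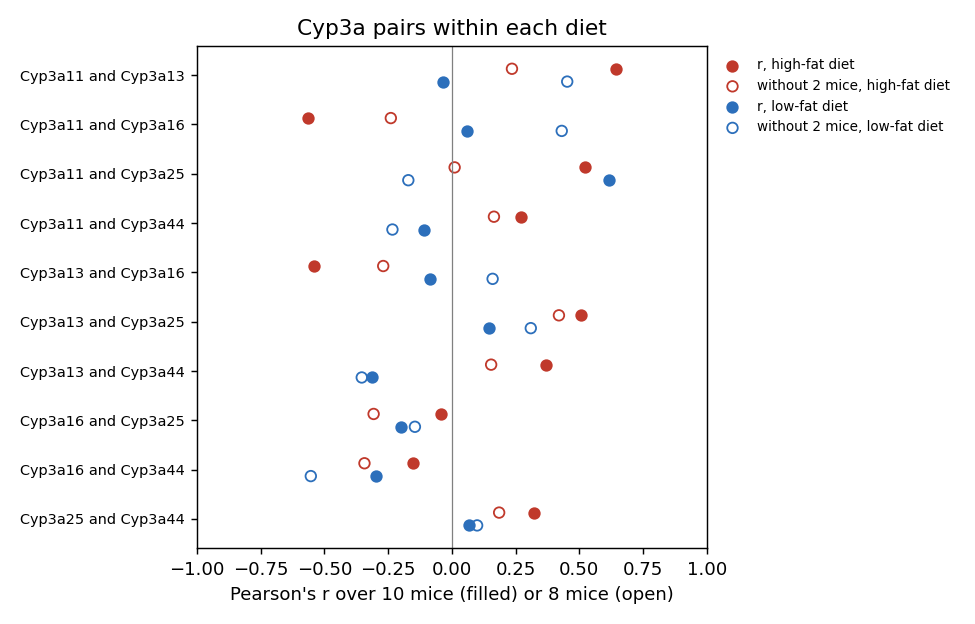
Pearson's r between pairs of Cyp3a genes (x axis) over the mice of 1 diet. Red is the high-fat and blue the low-fat diet; filled points use 10 mice and open points leave out the 2 mice farthest from the median of the first gene. Values lie on both sides of 0, and those of Cyp3a11 with Cyp3a25 move close to 0 or below it when 2 mice are left out.

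Cyp3a11 was also set against 32 measured regulators and electron-transfer or haem genes within each diet, and 0 of 64 relations passed (smallest adjusted p = 0.25 for r, permutation test). At an unadjusted p under 0.05 there were 11. CAR (Nr1i3) was among them in both diets, with r = 0.71 in high-fat mice (permutation p = 0.0159) and r = 0.71 in low-fat mice (permutation p = 0.0228), but rho was 0.52 and 0.59 (permutation p = 0.132 and 0.0813). Without the 2 mice farthest from the median of Cyp3a11, and so over a narrower range, r with Nr1i3 was 0.07 in high-fat and 0.05 in low-fat mice. Onecut1, a liver transcription factor chosen here after its value was seen, had the smallest p in high-fat mice (r = -0.80, permutation p = 0.00607; rho = -0.75, permutation p = 0.0173), and r was -0.45 without the 2 farthest mice.

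Genes whose scores varied most like those of Cyp3a11 among mice of 1 diet were ranked by the mean of r in high-fat and in low-fat mice, over all named genes outside the family, as a description. They were Hdac6, a deacetylase of tubulin (0.78 in high-fat and 0.83 in low-fat mice), Trappc12 (0.88 and 0.69 in high-fat and low-fat mice), Mynn (0.89 and 0.65), Rusf1 (0.79 and 0.73) and Coq9, of coenzyme Q synthesis (0.77 and 0.75). For Cyp3a13 they were Ahcyl1, Sult1d1, a sulfotransferase, and Cpm, with mean r of 0.88, 0.88 and 0.87. For Cyp3a25 they were Ppp3ca, a calcineurin subunit, Hnrnpul1 and Wwp1 (0.87, 0.86 and 0.83), for Cyp3a16 Slc8b1, Ip6k1 and Hagh (0.82, 0.79 and 0.77), and for Cyp3a44 Qrich2, Igdcc4 and Klhl36 (0.75, 0.73 and 0.70). No gene stood in more than 1 of these lists. The scores of Qrich2, Igdcc4 and Cpm were below the array median on all 20 arrays, so it is not known whether their transcripts were detected. Each list rests on 10 mice a diet, and the highest of many values of r is high by selection.

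Other genes of the pathway were counted from 9 lists, each gene by its probe set with the highest mean and its call taken from the same fit. Of the 126 genes measured, 2 fell and 8 rose on the high-fat diet, while 1.51% of all genes were called lower and 1.49% higher. The median standardised difference of all genes was 0.04. Counts of genes at an unadjusted p under 0.05 are given below without the share over all genes, so nothing is read from them.

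Of 20 measured regulators of Cyp3a genes, 0 were called in either direction by limma, 4 had an unadjusted p under 0.05, and 11 stood below the low-fat mean (median -0.14). PXR (Nr1i2) stood at -0.20 (95% interval -1.08 to 0.68, adjusted p = 0.881 by limma), with the high-fat mouse higher in 46 of 100 pairs. CAR (Nr1i3) stood at 1.25 (0.27 to 2.20, adjusted p = 0.154 by limma), with the high-fat mouse higher in 85 of 100 pairs. It passed in 1 of the fits that left out 1 mouse (adjusted p = 0.0356 by limma without high-fat replicate 3) and stood at -0.18 after quantile normalisation.

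Of 12 measured electron donors and haem synthesis genes, with 3 at an unadjusted p under 0.05, 1 fell and 0 rose (median 0.13). It was Urod, read by a probe set marked as able to cross-hybridise, which decarboxylates a porphyrin on the way to haem (-1.77, 95% interval -2.80 to -0.71, adjusted p = 0.0384 by limma). That call was lost in 13 of the 20 fits without 1 mouse (high-fat replicates 4 to 10, low-fat replicates 1, 4, 5, 6, 9 and 10; adjusted p up to 0.0662) and with the replicate block (adjusted p = 0.0956), array weights (0.0521) and the spike-in covariate (0.104). Urod has 2 probe sets, and with the mean over a gene's probe sets 0 genes of this list were called lower. The count was also 0 without cross-hybridising probe sets. Cytochrome P450 reductase (Por) had no named probe set here and was not analysed here.

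Among 28 measured genes known to be induced through PXR or CAR, 1 fell and 3 rose (median -0.35). In this list 12 had an unadjusted p under 0.05, and 16 stood below and 12 above the low-fat mean. Cyp2c29, a cytochrome of drug and fatty acid oxidation, fell, and no high-fat mouse reached the low-fat range (-3.26, 95% interval -4.62 to -1.87, adjusted p = 0.000541 by limma). Abcc3, which exports conjugates and bile acids into blood, rose (2.95, 1.64 to 4.23, adjusted p = 0.00137). Gsta2, a glutathione transferase, rose (2.04, adjusted p = 0.0177), as did Ces1g, a carboxylesterase named after its value was seen (1.92, adjusted p = 0.0242). With the replicate block the adjusted p of Gsta2 was 0.0504. The call of Ces1g was lost with the spike-in covariate (adjusted p = 0.0977) and with the Wilcoxon test (adjusted p = 0.0517). Cyp2b10, the usual marker of CAR in mouse liver, also named after its value was seen, stood at 0.43 (-0.46 to 1.31, adjusted p = 0.704).

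**Figure D4:**
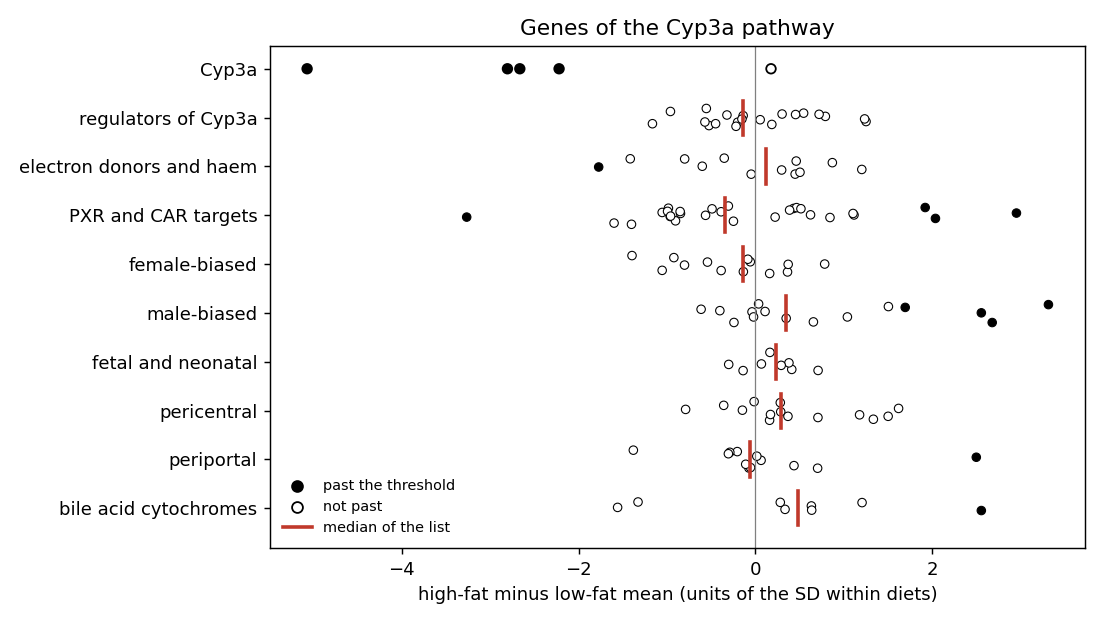
Standardised difference between diets (x axis, high-fat minus low-fat mean in units of the SD within diets) for the 5 Cyp3a genes and the genes of 9 lists. Filled points passed an adjusted p of 0.05 by limma over all probe sets, open points did not, and red lines are list medians. The 4 lower Cyp3a genes lie at -2.22 to -5.07, and the list medians lie between -0.35 and 0.48.

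Of 13 measured genes known to be higher in female mouse liver, the group to which Cyp3a44 belongs, 0 were called by limma and 2 had an unadjusted p under 0.05 (median -0.14). Of 15 measured genes known to be higher in males, with 6 at an unadjusted p under 0.05, 4 rose and 0 fell (median 0.35). They were Moxd1, a monooxygenase-like gene in which the diets did not overlap (3.31, 95% interval 1.91 to 4.68, adjusted p = 0.000469; 0.0934% of genes had all high-fat mice above and 0.181% all below the low-fat mice), Susd4, a complement regulator (2.68, 1.43 to 3.89, adjusted p = 0.00294), Cyp7b1, an oxysterol hydroxylase whose probe set also bears that mark (2.56, 1.33 to 3.74, adjusted p = 0.00405), and C6 of complement, named after its value was seen (1.70, adjusted p = 0.0472). The score of Moxd1 was below the array median on 11 of the 20 arrays, with a low-fat mean of 6.25. Whether its transcript was detected on those arrays is not known. The call of C6 was lost in 16 of the 20 fits without 1 mouse, all but those without high-fat or low-fat replicates 7 and 9 (adjusted p up to 0.0851), and after quantile normalisation its value was -0.85 (adjusted p = 0.208). It was also lost with the replicate block (1.27, adjusted p = 0.199), the Wilcoxon test (0.0882), the spike-in covariate (0.0621), the unmoderated model (0.0575), and centring on standardised values or omission of cross-hybridising probe sets (0.0511 each). Of 8 fetal and neonatal genes, the group to which Cyp3a16 belongs, 0 were called and 0 had an unadjusted p under 0.05 by limma (median 0.23).

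Cyp3a11 is known to be higher in hepatocytes near the central vein. Of 14 measured pericentral genes 0 were called by limma and 4 had an unadjusted p under 0.05, with 10 above the low-fat mean (median 0.28). Of 12 periportal genes 1 rose, the sulfotransferase gene Sult5a1 (2.50, 95% interval 1.29 to 3.67, adjusted p = 0.00486), 0 fell and 2 had an unadjusted p under 0.05 (median -0.06). Of 8 cytochromes of bile acid synthesis and hydroxylation, Cyp7b1 rose, 0 fell and 4 had an unadjusted p under 0.05 (median 0.48). Of the 3 named genes nearest on each side of the Cyp3a cluster, 0 of 6 were called by limma and 1 had an unadjusted p under 0.05, Zfp655, and all 6 stood above the low-fat mean (0.35 to 1.54).

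The hepatocyte list had 0 of 9 measured markers called by limma (1 had an unadjusted p under 0.05) and mean standardised scores of -0.80 to 0.48 in high-fat mice and -0.44 to 0.65 in low-fat mice. Alb, the albumin gene, had a mean score of 14.82 in both diets and stood at -0.67 (adjusted p = 0.987). Ttr, the gene of the plasma carrier transthyretin, named after its value was seen, was the one with the unadjusted p under 0.05 (-3.12, 95% interval -4.43 to -1.76, p = 0.0251, adjusted p = 0.241 by limma). All its high-fat scores lay below the low-fat range, as for Cyp3a11 and Cyp3a44, and its probe set is marked as able to cross-hybridise. In this list 1 gene was called lower by the unmoderated model, by the Wilcoxon test and with the mean over a gene's probe sets, and 7 were after median centring.

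Of 6 bile duct markers 1 rose, Krt23, a keratin (2.09, adjusted p = 0.0154), and the list scored -0.35 to 1.00 in high-fat and -0.89 to 0.86 in low-fat mice. The call of Krt23 was lost with the spike-in covariate (adjusted p = 0.0697). Of 5 acinar markers 1 rose, Cela1, an elastase (1.80, adjusted p = 0.0349), and the list scored -0.68 to 1.13 in high-fat and -0.69 to 0.62 in low-fat mice. The call of Cela1 was lost with the spike-in covariate (0.11), the Wilcoxon test (0.0629) and the replicate block (0.0624). It was also lost in 12 of the 20 fits without 1 mouse (high-fat replicates 1, 2, 4, 5, 6 and 8, low-fat replicates 2, 6, 7, 8, 9 and 10; adjusted p up to 0.0624). Of 7 muscle and fat markers 1 fell, Mylpf, a myosin light chain (-1.99, adjusted p = 0.0273), and the list scored -0.67 to 0.52 in high-fat and -0.50 to 0.51 in low-fat mice. The score of Mylpf was below the array median on all 20 arrays, so it is not known whether its transcript was detected. After quantile normalisation Mylpf stood at -0.35 (adjusted p = 0.646), and its call was also lost with the spike-in covariate (0.0597) and without low-fat replicate 8 (0.0528). No marker of enterocytes (8), leukocytes (11), endothelial cells (8) or stellate cells (8) was called by limma, with 2, 0, 1 and 3 at an unadjusted p under 0.05. Median standardised differences were 0.75 for the stellate list, 0.42 for acinar, 0.10 for hepatocyte, 0.09 for bile duct and 0.08 for enterocyte markers. They were -0.04 for endothelial, -0.08 for muscle and fat and -0.11 for leukocyte markers, where that of all genes was 0.04. The stellate list scored 0.03 to 1.51 in high-fat and -0.81 to 0.78 in low-fat mice, and the enterocyte list -0.37 to 0.13 in high-fat and -0.82 to 0.44 in low-fat mice. The leukocyte list scored -0.74 to 1.68 in high-fat and -0.42 to 0.86 in low-fat mice, and the endothelial list -0.43 to 0.53 in high-fat and -1.28 to 1.15 in low-fat mice. The part of these cell types in the Cyp3a values was not tested.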

How the data were processed

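The authors deposited 1 score per probe set and array, after summarising and normalising the probes by a method not given in the sources used here. Per the labels' protocols, 200 ng of total liver RNA was biotin-labelled with a 3′-end kit. The scores ran from 5.18 to 15.00, with a median SD within diets of 1.15e-05, and their differences were not taken as log2 fold changes.

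Diets were compared over all 45037 probe sets that were not controls with limma 3.58.1 in R 4.3.3 (two-sided, no covariate, no filter on low values), adjusted by the Benjamini-Hochberg method over all of them with a threshold of 0.05. The fit was tested on simulated data with independent noise in each probe set and no shift of whole arrays. That test says nothing of the scaling of these data. Intervals are 95%, from the noncentral t distribution, and use the SD of the probe set alone. Those of the Cyp3a members take no account of the choice of members by this contrast. The p of limma uses a variance moderated across probe sets, so p and interval can disagree where that SD is very small, as for Ttr. Gene names came from the platform annotation: 34945 probe sets had 1 symbol, 932 had several and were not named, and 9160 are unnamed here. By identifier, 34741 of the single-symbol probe sets were found among the RefSeq genes of GRCm38.p6, and 0 symbols changed. The file held 0 columns of other samples, and the number of arrays limits the precision. Same-numbered mice of the diets were not paired by the labels.

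Members and lists were chosen with earlier results of these data known, and the motifs after the promoter sequences had been read. Upstream regions were aligned end to end with Biopython 1.88 (match 2, mismatch -1, gap opening -3 and extension -1); identity is identical bases over alignment length. Named genes were all members, up to 3 called genes of each list with the smallest adjusted p, Nr1i2, Nr1i3, Por and Alb, and the genes most like each member (5 for Cyp3a11 and 3 for each other, predicted gene models left out); others are said to be named after their values were seen. Alternatives were other array scalings, weights, the replicate block, other variance models, a Wilcoxon rank sum test, the upper 50% of probe sets by mean, a threshold of 0.01, omission of cross-hybridising probe sets, the average over a gene's probe sets, omission of each mouse and a spike-in covariate.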

Additional observations from a re-analysis of the deposited data

How the results depend on the processing

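As a description, since this contrast chose the members, Cyp3a11, Cyp3a25, Cyp3a44 and Cyp3a13 stood below the low-fat mean in every setting that gave a value. That is no test of them. The count of members called lower was 4 except after quantile normalisation (1, Cyp3a13, with Cyp3a44 at -0.32 and 3 members without a value), after median centring (5, with Cyp3a16 at -1.30), among the upper probe sets by mean (3, since Cyp3a44 lies below that limit) and at a threshold of 0.01 (3). With 1 mouse left out, Cyp3a11 stood between -5.79 and -4.91, Cyp3a25 between -3.15 and -2.69, Cyp3a44 between -2.84 and -2.55, Cyp3a13 between -3.01 and -2.12, and Cyp3a16 between -0.0025 and 0.43.

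With the replicate block Cyp3a11 stood at -4.46, Cyp3a44 at -3.05, Cyp3a13 at -2.94, Cyp3a25 at -2.75 and Cyp3a16 at 0.20, and 4 members were called lower. Deviations of same-numbered mice correlated between -0.146 and 0.23, 2 of 10 pairs were over 0.1, and 1 high-fat mouse correlated best with its own number. The labels do not say what the numbers stand for, and a factor shared by mice of the same number was not tested. Over all probe sets the block gave 238 lower and 300 higher calls, against 542 and 501 without it, the spike-in covariate 261 and 306, a threshold of 0.01 138 and 134, quantile normalisation 3784 and 380, and median centring 38220 and 396.

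Of the genes in the pathway lists 2 were called lower, but 1 with array weights, the spike-in covariate, the omission of cross-hybridising probe sets or a threshold of 0.01, 8 after quantile normalisation, 52 after median centring and 1 to 3 without 1 mouse. The 8 called higher were 17 after median centring and 5 at a threshold of 0.01. Median centring moves most genes down by construction, and the cause of the other changes was not tested. The count of correlations among Cyp3a genes past the threshold was also 0 with rank correlation and with centring on standardised values. After quantile normalisation only Cyp3a13 with Cyp3a44 could be correlated, so that setting says nothing of the other pairs. Median centring put Alb at -1.33 (adjusted p = 0.017), and quantile normalisation put C6 at -0.85. The spike-in covariate was chosen after seeing the data.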
